A study of Mus musculus with 4 samples.

Results

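Expression of 9 genes of extracellular matrix turnover was measured in cells from the ascites of tumor-bearing mice: the metalloproteinases Mmp8, Mmp9, Mmp12, Mmp13, Mmp14 and Mmp19 and the tissue inhibitors Timp1, Timp2 and Timp3. They were chosen by symbol, with earlier results of these data known. They are 9 of the 32285 genes in the count tables, which list 26 Mmp and Timp genes. All samples came from female FVB mice carrying Br-Luc tumors in the peritoneal cavity (tumor genotype p53-/-; brca1-/-; myc; Akt-myr), collected 6 weeks after the tumor cells were injected. The mice had received either the control small interfering RNA siCont-LNA or siFXR1-LNA, directed against Fxr1, both carried by jetPEI. Each group had 2 libraries, and each library pooled the ascites of several mice, so that differences between mice cannot be seen and p-values measure the spread between pools. The study set aside one of the siFXR1-LNA libraries for its low yield. The labels do not tell which it was, so both are used here. Tumor, host and treatment cannot be separated further, since all 4 pools carried the same tumor and no untreated pool was analysed here.

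Single-cell 3′ libraries held 17309 to 54665 barcodes and between 78179267 and 113606837 UMIs (unique molecular identifiers, 1 per captured transcript). Cells were grouped by clustering and named from marker genes, so that a name such as macrophages stands for a macrophage-like cluster. No Mmp or Timp gene was used for the clustering. A gene's level is given in CPM, its UMIs per 1000000 UMIs of a cell type in 1 library, in the order siCont replicate 1, siCont replicate 2, siFXR1-LNA replicate 1 and siFXR1-LNA replicate 2 wherever 4 values follow each other. Hemoglobin made up 29.5 and 41.1% of the UMIs in the siCont libraries, against 10 and 9.11% for siFXR1-LNA. Barcodes shared by pairs of libraries numbered 575 to 2846, which was 3.41 to 7.84% of the smaller library. Fxr1 itself was not lower in the libraries labelled siFXR1-LNA. It stood at 65.2, 60, 73.4 and 69 CPM in macrophages and at 109.2, 124.7, 140 and 137.9 in tumor or mesothelial cells. The paper, by a per-cell test and with a siFXR1-LNA library set aside, reports lower Fxr1 in epithelial cells after siFXR1-LNA. The group names below are those of the labels. Cell yields differed as well, with 438, 902, 5465 and 4791 granulocytes against 2366 to 4939 macrophages in all 4.

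Metalloproteinases are zinc enzymes that cut collagens, elastin and other matrix proteins and also release or trim growth factors and chemokines. They are made as inactive precursors and held in check by TIMPs, which block the active site. In the peritoneum, Mmp8 (neutrophil collagenase) and Mmp9 (gelatinase B) are known as granule proteins of neutrophils, Mmp12 as macrophage elastase, Mmp13 as a collagenase, and Mmp14 as a membrane-bound enzyme that activates other metalloproteinases. Timp2 forms part of that activation complex on the cell surface, and Timp3 is bound to the matrix.

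The 6 enzymes share a coding stretch for the site that binds the catalytic zinc ion. It is shown because it is the feature that makes these genes one family and that the TIMPs lack. The stretches were read from the GRCm38 genome with GENCODE vM21 exons, are all coding, lie on the + strand and are 33 bases long, with the 3 histidine codons that hold the zinc in capitals:
Mmp8, chr9:7563086-7563118, exon 5: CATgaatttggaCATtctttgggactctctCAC
Mmp9, chr2:164951133-164951165, exon 8: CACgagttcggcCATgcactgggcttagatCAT
Mmp12, chr9:7352914-7352946, exon 5: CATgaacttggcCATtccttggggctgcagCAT
Mmp13, chr9:7276573-7276605, exon 5: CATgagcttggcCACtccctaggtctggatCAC
Mmp14, chr14:54437627-54437659, exon 5: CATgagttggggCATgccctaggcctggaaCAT
Mmp19, chr10:128795673-128795705, exon 5: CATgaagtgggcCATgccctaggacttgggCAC

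Any pair of these stretches had between 20 and 25 of the 33 bases in common, and no TIMP coding sequence held a match. Mmp13 (chr9:7272514-7283331), Mmp12 (chr9:7344381-7369499) and Mmp8 (chr9:7558456-7568485) lay near each other on chromosome 9, within 427.1 kb that held 9 metalloproteinase genes of the count tables. The other members were spread over the genome, with Mmp9 at chr2:164940780-164955850, Mmp14 at chr14:54431612-54445364, Mmp19 at chr10:128790910-128800824, Timp1 at chrX:20870166-20874735, Timp2 at chr11:118301069-118355740 and Timp3 at chr10:86300372-86349506. Timp2 alone was on the − strand. Neighbours in the chromosome 9 cluster did not have the same leading cell type, since Mmp8 was highest in granulocytes and Mmp12 and Mmp13 had their highest mean in macrophages.

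Granulocytes, here neutrophil-like cells led by S100a9, Retnlg and S100a8, held the highest levels of both neutrophil granule enzymes in every library. Mmp9 stood at 1089.2, 1132.2, 498.5 and 707.9 CPM in granulocytes, and the range over the 4 libraries did not overlap that of the next type, macrophages. Mmp8 stood at 72.6, 404.9, 305.1 and 600.7 in the same cells, again without overlap with macrophages, and siCont replicate 1 was the low library. After thinning every cell to 1000 UMIs, which puts cells of different depth on one footing, 55.9 and 56.9% of siCont granulocytes and 34 and 42.7% of siFXR1-LNA granulocytes had a UMI of Mmp9. Without thinning these shares were 71.9, 69.2, 50.2 and 63.8%.

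Granulocytes of the siCont and siFXR1-LNA libraries lay largely in different subclusters. Subcluster 2, led by the mast cell genes Mcpt4 and Cma1 and the interferon-induced gene Ifi27l2a, held 427 and 857 siCont cells and 17 and 265 siFXR1-LNA cells. In it Mmp9 stood at 1109.1, 1112.6, 745.1 and 1431.5 CPM and Mmp8 at 57.4, 331.8, 350.6 and 268.2, so the groups overlapped for both. Subcluster 0, led by the chemokine genes Ccl3 and Cxcl3, held 1036 and 3681 siFXR1-LNA cells and 2 siCont cells, with Mmp9 at 705.7 and 710.7 and Mmp8 at 462.3 and 678.9. Subcluster 1, whose leading genes included Tfrc and Ccn2, held 3702 and 443 siFXR1-LNA cells and 12 siCont cells, with Mmp9 at 455 and 449.2 and Mmp8 at 272.2 and 305.6 in the siFXR1-LNA libraries. The small subcluster led by Camp, Ngp and Ltf, granule genes of immature neutrophils, occurred in all 4 libraries and held 341.9, 969.7, 429.5 and 651.5 CPM of Mmp8 and 710.2, 1312.5, 883.6 and 986.9 of Mmp9.

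Macrophages led for Mmp12, Mmp19 and Mmp13, and held the highest mean of Mmp14. Mmp19 stood at 10.9, 13, 27.8 and 26.3 CPM in macrophages, above every library of the next type. Mmp12 was low, at 2.81, 4.49, 6.74 and 9.56, and overlapped with dendritic cells (DCs) at 3.67, 5.25, 4.82 and 2.67. In both siCont libraries DCs were above macrophages for Mmp12. In granulocytes thinned to 1000 UMIs, a UMI of Mmp12 was found in 0 of 374 and 0 of 634 siCont cells and in 4 of 5364 and 9 of 4685 siFXR1-LNA cells. The counts of 0 allow a share of cells with a UMI of up to 0.802 and 0.473%, for counting error only. Mmp13 gave only 49, 94, 53 and 18 UMIs in macrophages, which were 83.1, 93.1, 74.6 and 85.7% of all its UMIs in the 4 libraries.

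Cells of the tumor or mesothelial cluster, which keratin and mesothelial markers could not separate, had the highest mean level of each TIMP among the 6 types plotted. Timp3 stood at 315.5, 248.5, 472.1 and 499 CPM in them, Timp2 at 447.8, 572.7, 229.5 and 399.7, and Timp1 at 28.2, 13.4, 28 and 58.8. Within each library these cells were first of the 6 types plotted for Timp1 and Timp3, although over the 4 libraries each range overlapped that of the next type. The leading type changed for Timp2. Timp2 in macrophages, at 681.4, 421.9, 181.9 and 236.9, was above the tumor or mesothelial level in siCont replicate 1 and below it in the other 3 libraries. A cluster of shallow barcodes left unnamed, not among these types, stood at 579.9 and 241.7 CPM of Timp3 in the siFXR1-LNA libraries. In siFXR1-LNA replicate 1 it held 71.2% of all Timp3 UMIs, 62.6% of Timp2 and 64% of Timp1. In siFXR1-LNA replicate 2 these shares were 30, 17.5 and 19.6%.

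**Figure D1:**
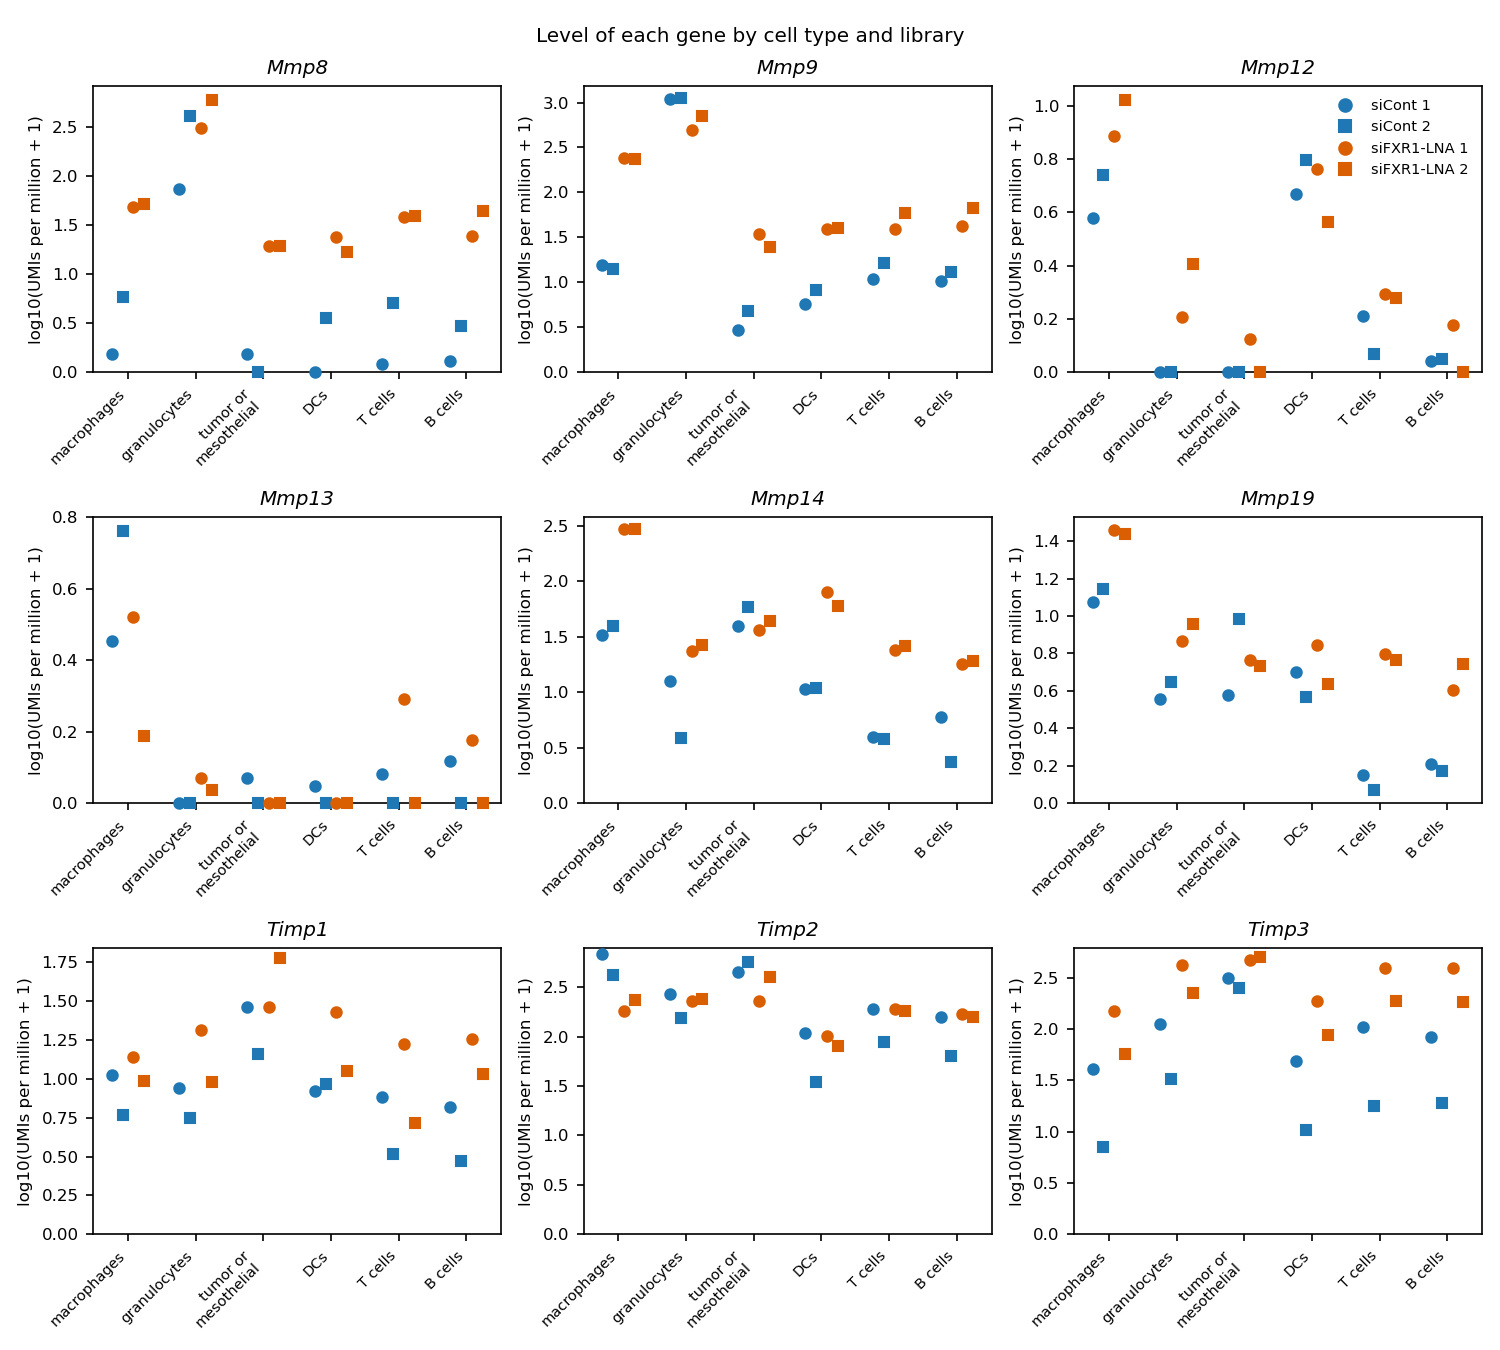
Level of each of the 9 genes, in CPM on a log10 axis after adding 1, in 6 cell types; each point is 1 library, blue for siCont and orange for siFXR1-LNA, circles for replicate 1 and squares for replicate 2. Mmp8 and Mmp9 are highest in granulocytes, Mmp14 and Mmp9 separate the groups in macrophages, and Timp3 is spread over all types.

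The main question of the design was how cells in the siFXR1-LNA ascites differed from those in the siCont ascites. In macrophages, 5 of the 9 genes were higher and 1 was lower in the siFXR1-LNA libraries at an adjusted p under 0.05, among all genes tested in macrophages by edgeR's quasi-likelihood test on UMI sums per library (Benjamini-Hochberg adjustment). The background was wide: of 14644 genes tested, 20.4% passed, 9.81% as higher and 10.6% as lower. The median log2 fold change of the 9 genes was 1.39, against 0 for all genes. Since the 9 genes were chosen with earlier results of these data known, setting them beside all genes is a description and no test.

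Mmp9 had the smallest standard error of the 9 genes in macrophages. It stood at 14.4 and 13 CPM in the siCont libraries and at 242.6 and 236.1 in the siFXR1-LNA libraries, so that the groups lay far apart and replicates close together. The log2 fold change was 4.34 (SE 0.134, adjusted p = 0.001345, n = 2 libraries a group, edgeR). The share of macrophages with a UMI of Mmp9, at 1000 UMIs per cell, was 1.46 and 1.03% against 14.2 and 15.6%. Among B cells, used as a type in which these enzymes are no markers, that share was 0.627, 0.87, 2.99 and 4.88%, at median depths of 2023 to 2721 UMIs per cell against 5080 to 8639 in macrophages. A test of shares with 2 libraries a group cannot go below an exact two-sided permutation p of 0.33.

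Mmp14 rose with it. Macrophages went from 32.1 and 38.2 CPM with siCont to 296.9 and 292 with siFXR1-LNA, a log2 fold change of 3.28 (SE 0.164, adjusted p = 0.003892, edgeR). The share of macrophages with a UMI was 3.37 and 3.61% against 20 and 20.7% after thinning, and 13.1, 17.7, 54.7 and 64% without it. In thinned B cells the share was 0.427, 0.0828, 2.18 and 1.26%.

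Mmp8 in macrophages went from 0.525 and 4.84 CPM to 47.4 and 50.4, a log2 fold change of 4.46 (SE 0.865, adjusted p = 0.02762, edgeR). The 2 siCont values lay far apart on a log scale, and both were below either siFXR1-LNA value. Mmp19, a broadly acting soluble enzyme, rose by 1.39 (SE 0.158, adjusted p = 0.009851). Mmp12 rose by 1.38 (SE 0.336, adjusted p = 0.04788), just inside the threshold.

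Timp2 moved the other way. Its level in macrophages fell from 681.4 and 421.9 CPM with siCont to 181.9 and 236.9 with siFXR1-LNA, a log2 fold change of −1.18 (SE 0.266, adjusted p = 0.03987, edgeR). At 1000 UMIs per cell, 41 and 29.6% of siCont macrophages and 16.8 and 19.6% of siFXR1-LNA macrophages had a UMI of it. Mmp13 (log2 fold change −1.02, adjusted p = 0.4151), Timp1 (0.79, adjusted p = 0.194) and Timp3 (2.38, adjusted p = 0.1332) did not pass.

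These calls rested in part on how many siFXR1-LNA libraries entered the test and on how cells were named. Without either siFXR1-LNA library, which left 1 in that group, fewer of the 9 genes were called, and calls over all genes fell too. Over 16 alternatives the log2 fold change ranged from 2.585 to 4.402 for Mmp9 and from 0.682 to 3.446 for Mmp14. When each cell was named by its own marker UMIs in place of its cluster, edgeR called 13 of 14032 genes in macrophages. None of the 9 genes was among them (adjusted p of Mmp9 0.05779).

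**Figure D2:**
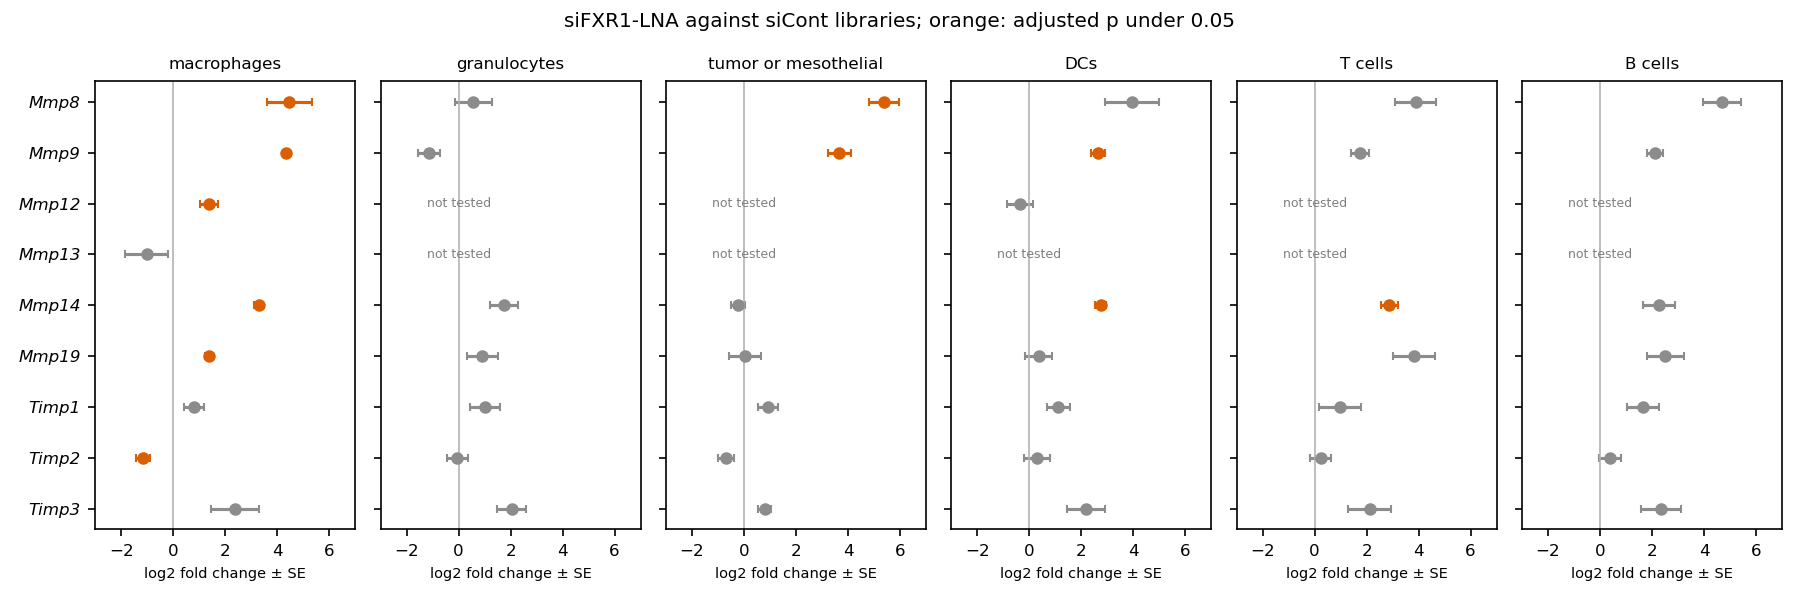
Log2 fold change of each gene in each cell type, siFXR1-LNA minus siCont, with the standard error from edgeR as bars; orange points have an adjusted p under 0.05, and genes below the count filter are marked as not tested. The 6 calls in macrophages are Mmp8, Mmp9, Mmp12, Mmp14 and Mmp19 above 0 and Timp2 below 0.

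Macrophages of the siCont and siFXR1-LNA libraries lay largely in different clusters. Cluster 6, led by Saa3, Ms4a4a, Mt2, Arg1, Hmox1 and Nos2, held 0 and 0.0423% of siCont macrophages and 64 and 59.4% of siFXR1-LNA macrophages. Cluster 2, led by Retnla, Apoe, Fcna and the complement genes C1qb and C1qa, held nearly all siCont macrophages and 1417 and 1507 cells of the siFXR1-LNA libraries. Arg1 (arginase) and Nos2 (inducible nitric oxide synthase) are enzymes by which macrophages use arginine. The genes that define a cluster are no result here, but the Mmp and Timp genes took no part in the clustering.

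Within cluster 6, Mmp14 stood at 386.8 and 398.7 CPM and Mmp9 at 305.8 and 300.6 in the siFXR1-LNA libraries. Cluster 2 of the same libraries held 37.7 and 74.3 of Mmp14 and 60.2 and 104.3 of Mmp9, against 32.1 and 38.2, and 14.4 and 13.1, in siCont cluster 2. Timp2 was the reverse, at 103.6 and 88.3 in cluster 6 and at 681.4, 422, 407.7 and 540.2 in cluster 2 of the 4 libraries. Mmp14 and Timp2 in cluster 2 thus overlapped between the groups, whereas Mmp9 in cluster 2 did not. In an alternative added after the data were seen, cluster 2 macrophages were tested alone by edgeR. Of all 13742 genes tested there 0 were called, and so none of the 9. The log2 fold change was 2.59 for Mmp9 (adjusted p = 0.07133), 2.92 for Mmp8 (0.2064), 0.68 for Mmp14 (0.3173), 0.58 for Mmp19 (0.2364), −0.05 for Mmp12 (0.9692) and −0.21 for Timp2 (0.7227).

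**Figure D3:**
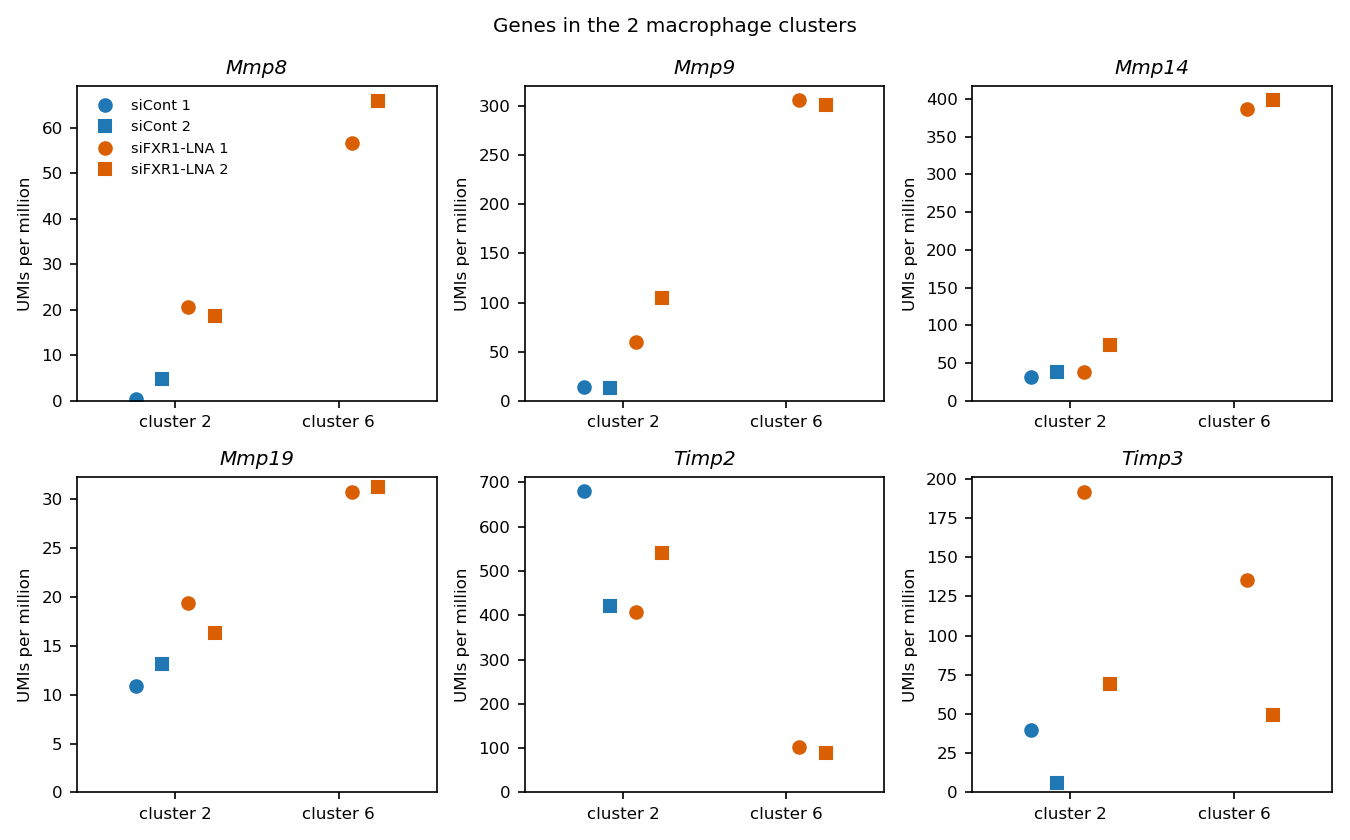
CPM of Mmp8, Mmp9, Mmp14, Mmp19, Timp2 and Timp3 in macrophage clusters 2 and 6, with 1 point per library in the colours and shapes of the groups and replicates; cluster 6 is shown for the siFXR1-LNA libraries, since it held 0 and 1 siCont macrophage. Mmp9 and Mmp14 are high and Timp2 is low in cluster 6, and in cluster 2 the 2 groups overlap for Mmp14 and Timp2.

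Finer subclusters spread the genes further. The subcluster led by Saa3, Mt2, Hp and Lcn2, found in siFXR1-LNA libraries except for 1 cell, held 404.4 and 409.4 CPM of Mmp14, 317.1 and 309.2 of Mmp9, 58.3 and 66.1 of Mmp8, and 99 and 87.9 of Timp2. A subcluster led by Cacna1d and Nos2 occurred in all 4 libraries, and in it Mmp9 stood at 10.1, 26.3, 178 and 180.4 and Mmp14 at 20.2, 26.3, 179.6 and 228.6. The siFXR1-LNA cells of this subcluster were thus above the siCont cells for both enzymes, with 115, 45, 624 and 430 cells behind these values. It also had raised granulocyte markers, whose sum was 90.7, 400.8, 1840.5 and 1841.4 CPM, and their part in these values was not tested.

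Timp2 was high in a pair of subclusters found in both groups. The one led by Fcna and Lyve1 held 930.7, 591.2 and 721.9 CPM in the 3 libraries with at least 10 of its cells, siFXR1-LNA replicate 1 having too few. The one led by Prg4 and Alox15, genes of large peritoneal macrophages, held 785.9, 651.1, 564.1 and 653.6, and Mmp9 in it was 19.9, 23.2, 73.8 and 135.9. The subcluster led by Ear2 and Ccr2, a chemokine receptor of monocytes, held less Timp2, with 194.4, 158.3, 289.4 and 240.1. Mmp13 was found at 8.5 and 11.8 in the subcluster led by the interferon-induced genes Slfn4 and Irf7, which held 1 cell of the siFXR1-LNA libraries, and 110 Mmp13 UMIs were counted there in all.

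**Figure D4:**
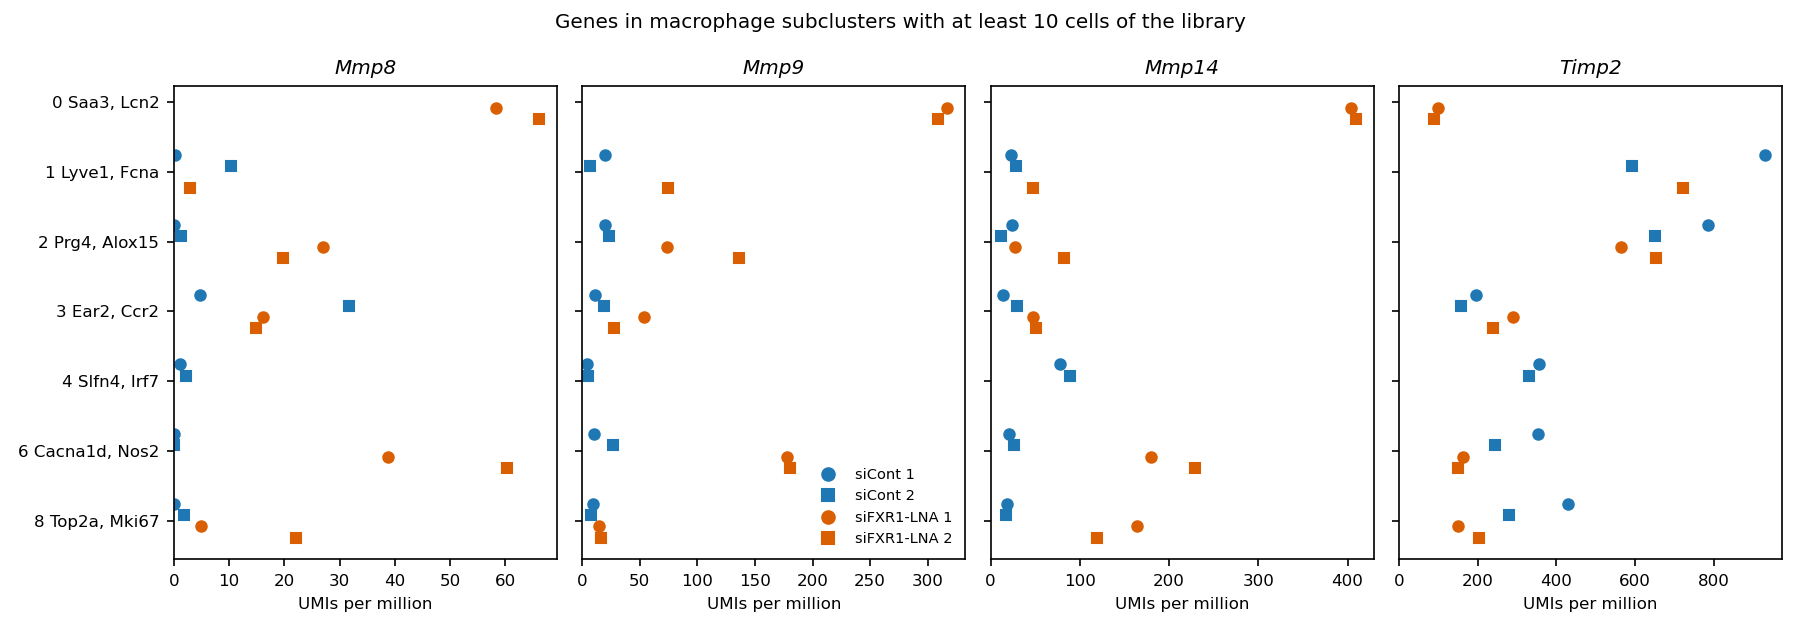
CPM of Mmp8, Mmp9, Mmp14 and Timp2 in 7 macrophage subclusters, 1 point per library with at least 10 cells of the subcluster, colours and shapes as for the groups and replicates. Mmp14 and Mmp9 reach 409.4 and 317.1 in subcluster 0, led by Saa3, where Timp2 is at 99 or less.

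In granulocytes the calls of macrophages did not recur. Of the 7 genes that passed the count filter there, edgeR called 0, with 3.32% of 12309 genes called, while 3 of the 7 had an unadjusted p under 0.05 and DESeq2 called 1. Of all genes in granulocytes, 2238 had an unadjusted p under 0.05 and DESeq2 called 523 of 12269. Mmp9 was lower in each siFXR1-LNA library, with a log2 fold change of −1.13 (SE 0.426, adjusted p = 0.1841), while the groups overlapped within subcluster 2. Mmp14 stood at 11.7, 2.85, 22.5 and 25.8 CPM, both siFXR1-LNA values above both siCont values (1.75, SE 0.544, adjusted p = 0.1091). Mmp8 overlapped between the groups (0.56, adjusted p = 0.7479), as did Timp2 (−0.05, adjusted p = 0.9694). Timp3 had the smallest adjusted p of the 7, at 0.07283 with a log2 fold change of 2.05 (SE 0.558), and 0.004955 by DESeq2.

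The change of Mmp8 and Mmp9 differed between these cell types, by a test of the interaction of group and cell type with library as a block. The log2 fold change of Mmp9 was 5.37 higher in macrophages than in granulocytes (SE 0.382, adjusted p = 4.914e-09, edgeR), and that of Mmp8 was 3.89 higher (SE 0.42, adjusted p = 2.436e-06). Of all genes, 3.82% passed this test. For Timp2 the difference was −1.23, at an adjusted p of 0.05243, and for Mmp14 it was 1.39 (SE 0.581, adjusted p = 0.2296).

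In tumor or mesothelial cells 2 of 7 tested genes were called, both higher, where 7.78% of 13136 genes passed. Here too the groups lay largely in different subclusters, so their values do not compare like cells. The subcluster led by Cpne8 and Pcdh9 held 3 and 1 siCont cells and 816 and 24 siFXR1-LNA cells. The one led by E330013P04Rik and Sgcz held 487 and 79 siCont cells and 6 and 14 siFXR1-LNA cells. Mmp9 went from 1.93 and 3.84 CPM to 33.2 and 23.9, a log2 fold change of 3.67 (SE 0.441, adjusted p = 0.001692, edgeR). Mmp8 went from 3 UMIs in both siCont libraries together to 222 UMIs in the siFXR1-LNA libraries, at an adjusted p of 0.001143 by edgeR. The ratio of their pooled levels was 41.4, with an exact 95% interval of 14 to 202.5 that covers counting error only. Mmp14 overlapped between the groups in these cells, at 38.3, 57.6, 35.4 and 43 (log2 fold change −0.23, adjusted p = 0.6788). Its change was smaller than in macrophages by 3.47 (SE 0.312, adjusted p = 0.00337), a test that 0.689% of genes passed, and none of the 9 genes passed it without siFXR1-LNA replicate 1. Timp3 (0.81, adjusted p = 0.07803, and 0.02048 by DESeq2), Timp1 (0.93, adjusted p = 0.1716) and Timp2 (−0.69, adjusted p = 0.1909) did not pass with edgeR.

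Much of the Mmp8 and Mmp9 in this cluster lay in a pair of subclusters led by genes that include those of other cell types. The first, led by the neutrophil genes Retnlg and S100a9, comprised 134 cells of the siFXR1-LNA libraries and held 56.9% of the 225 Mmp8 UMIs and 45.3% of the 386 Mmp9 UMIs of the cluster, at 133.9 and 198.9 CPM of Mmp8 and 189.3 and 240.1 of Mmp9. The other, led by the collagen genes Col1a2 and Col1a1 with macrophage genes such as C1qb, held 20% and 33.9% of them. The subcluster led by Tm4sf1 and Lgals7, which raised 6 tumor or mesothelial markers, held 3.56% and 6.22%. It had cells in each library, and in it Mmp8 stood at 1.08, 0, 3.14 and 3.72 CPM and Mmp9 at 2.69, 3.96, 10.5 and 9.93. When subclusters led by markers of another type were left out, an alternative added after the data were seen, Mmp8 stayed called (log2 fold change 3.32, adjusted p = 0.02706) and Mmp9 did not (1.81, adjusted p = 0.09025). The TIMPs lay elsewhere in the cluster. Timp2 reached 786.4, 1440.2, 665.4 and 734.7 in the subcluster led by Tm4sf1 and Lgals7, and Timp1 reached 67.2, 51.7, 87.9 and 309.5 in the one led by the collagen gene Col1a2, which also held macrophage genes.

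Compared with tumor or mesothelial cells, granulocytes had a smaller change of Mmp8 (difference −3.80, SE 0.814, adjusted p = 0.007265) and of Mmp9 (−4.64, SE 0.602, adjusted p = 3.33e-06), where 0.823% of genes passed. Without siCont replicate 2 or without siFXR1-LNA replicate 1, 1 gene passed that test in place of 2.

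In DCs 2 of 8 tested genes were called, with 2.8% of 11895 genes called. Mmp14 went from 9.59 and 10 CPM to 78.3 and 59.4, a log2 fold change of 2.75 (SE 0.207, adjusted p = 0.009904, edgeR). Mmp9 went from 4.74 and 7.2 to 37.9 and 38.7 (2.64, SE 0.258, adjusted p = 0.01159). In the subcluster led by Ccr7 and Fscn1, genes of mature DCs, Mmp14 stood at 6.3, 19.9, 79.3 and 72.9 and Mmp9 at 1.15, 3.46, 38.1 and 39.6. DCs also took in cells split from the macrophage clusters. A subcluster led by Ifitm1, with the DC genes Mgl2 and Cd209a, gave 778, 429, 183 and 236 of the 1647, 800, 341 and 418 DCs. In it Mmp14 stood at 9.12, 5.94, 88.8 and 61.1 and Mmp9 at 8.05, 8.77, 28.4 and 23.1. A small subcluster led by Siglech gave 34, 16, 13 and 20 more. Over 15 alternatives the log2 fold change in DCs stayed between 2.061 and 2.966 for Mmp14 and between 2.159 and 3.139 for Mmp9. The Mmp9 call was lost without either siFXR1-LNA library, and the Mmp14 call without siFXR1-LNA replicate 1. These fits left 1 library in that group, and calls over all genes fell in them too. Both calls were also lost with cells named one by one from their marker UMIs, where edgeR called 16 of 13010 genes.

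T cells had 1 of 7 tested genes called, with 0.456% of 12051 genes called. Mmp14 went from 2.92 and 2.8 to 23 and 25 CPM (log2 fold change 2.88, SE 0.34, adjusted p = 0.03887, edgeR). The log2 fold change stayed between 2.62 and 2.90 under 15 alternatives. The call was lost without subclusters led by markers of another type (adjusted p = 0.05284, edgeR), where 42 of 12006 genes were called. It was also lost without either siFXR1-LNA library, which left 1 in that group, and calls over all genes fell too. B cells had 0 of 7 called by edgeR, where 0.112% of 12454 genes passed, although 6 of the 7 had an unadjusted p under 0.05 and DESeq2 called 3. Of all genes in B cells, 1780 had an unadjusted p under 0.05 and DESeq2 called 450 of 12445. Mmp8 in B cells was 0.314, 1.94, 23.7 and 42.7 and Mmp9 was 9.3, 12.1, 41.3 and 66, with log2 fold changes of 4.69 (adjusted p = 0.08311) and 2.12 (adjusted p = 0.07629). In the siFXR1-LNA libraries Mmp14 stood at 17.1 and 18.2 in B cells, 22.5 and 25.8 in granulocytes and 28.2 and 24.9 in shallow barcodes. These levels lay near those in T cells, against 296.9 and 292 in macrophages. Macrophage markers summed to 2107, 539.8, 1321.9 and 2516.9 CPM in T cells. In DCs their sum was 3008.8, 1163.4, 1401.4 and 2769.7. Their part in the Mmp14 values was not tested. Mast cells had 0 of 2 tested genes called by edgeR, 0 at an unadjusted p under 0.05 and 0 by DESeq2, where 1.15% of 2008 genes passed.

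The shallow barcodes of cluster 0, 41192 and 5456 of which came from the siFXR1-LNA libraries and 67 and 62 from siCont, were left unnamed. Their median depth in the siFXR1-LNA libraries was 1264 and 2126 UMIs, against 1871 and 2115 in granulocytes. Of the 7 genes tested in the shallow barcodes edgeR called 0, 4 had an unadjusted p under 0.05 and DESeq2 called 1. Of all 11167 genes 0.0895% passed by edgeR, 1266 had an unadjusted p under 0.05, and DESeq2 called 313 of 12858. The median log2 fold change of all genes was 0.41 in that fit, and 1.97 over the 7.

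Neutrophil transcripts were counted outside granulocytes too. The 8 neutrophil markers, all with UMIs in macrophages, summed to 104.1, 442.3, 1051 and 1300.3 CPM in macrophages, to 177.6, 859.7, 2162.5 and 2431.3 in B cells, and to 28684.3 to 84515.5 in granulocytes. In macrophages and B cells both siFXR1-LNA values lay above both siCont values, which was not so in granulocytes or in the shallow barcodes (176.7, 1576.3, 966.9 and 1023.8). The part of these transcripts in the changes of Mmp8 and Mmp9 was not tested, and 2 measurements stand beside it.

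First, B cells of the same libraries served as a comparison, chosen after the data were seen. The change of Mmp9 was larger in macrophages than in B cells by 2.26 (SE 0.308, adjusted p = 0.002019, edgeR), and that of Timp2 was lower by 1.63, a difference of −1.63 (SE 0.283, adjusted p = 0.00736), in a test that 3.71% of genes passed. The change of Mmp8 did not differ beyond its error (−0.15, SE 0.428, adjusted p = 0.9327), nor did that of Mmp14 (1.04, SE 0.495, adjusted p = 0.3372) or Timp3 (0.17, SE 0.261, adjusted p = 0.8519). Granulocytes had smaller changes than B cells for Mmp8 (−4.02, SE 0.401, adjusted p = 8.086e-06) and Mmp9 (−3.23, SE 0.315, adjusted p = 7.666e-06), with 2.94% of genes past that test. Between tumor or mesothelial cells and B cells edgeR called 0 of the 7 tested genes and 0% of 14107 genes, and 4 of the 7 had an unadjusted p under 0.05. Between DCs and B cells 0 of 8 were called by edgeR and 1 had an unadjusted p under 0.05, where 0.342% of genes passed.

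Second, Mmp9 was set against S100a8 and S100a9, the most abundant neutrophil transcripts. Per 1000 UMIs of these genes, granulocytes held 33.4, 16.8, 21.4 and 18.8 UMIs of Mmp9 and macrophages 227.9, 36.6, 282.4 and 216.7. Tumor or mesothelial cells, DCs, T cells and B cells reached at most 33.2 and 38.2 in the siFXR1-LNA libraries and at most 112.2 and 29.4 in the siCont libraries. NK cells and platelets had under 50 UMIs of S100a8 and S100a9 in each siFXR1-LNA library and are not compared. At the granulocyte ratio, the S100a8 and S100a9 UMIs in macrophages would carry 420.3 and 679.4 Mmp9 UMIs in the siFXR1-LNA libraries, 7.58 and 8.66% of the 5545 and 7850 counted. Whether neutrophil transcripts outside granulocytes keep that ratio was not tested. Within the siFXR1-LNA libraries, the 8 neutrophil markers summed to 1064.6 and 1277.4 CPM in cluster 6 macrophages and to 1011.7 and 1347.1 in cluster 2. Per 1000 UMIs of S100a8 and S100a9, cluster 6 held 351.2 and 277.3 Mmp9 UMIs and cluster 2 held 72.9 and 94.8. In B cells of those libraries the sum at the granulocyte ratio gave 93.8 and 59.3% of the counted Mmp9, and in tumor or mesothelial cells 64.5 and 53.5%.

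Mmp8 gave a narrower gap. Macrophages held 8.29, 13.6, 55.2 and 46.2 Mmp8 UMIs per 1000 of S100a8 and S100a9, against 2.23, 6.02, 13.1 and 15.9 in granulocytes, and tumor or mesothelial cells, DCs, T cells and B cells reached at most 26.8 and 27.2 in the siFXR1-LNA libraries. Mast cells of these libraries held 11.1 and 27.4. At the granulocyte ratio, 23.8 and 34.4% of the macrophage Mmp8 UMIs in those libraries would be reached by that sum.

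Timp3 was spread over cell types together with keratins. It was counted in B cells at 82, 18, 390 and 181.5 CPM, in T cells at 103.9, 16.8, 393 and 189.2, and in granulocytes at 110.2, 31.9, 422 and 222.6, with siCont replicate 2 low in all of them. Per 1000 UMIs of Krt8, Krt18 and Krt19, macrophages, granulocytes, DCs, T cells and B cells held 254.5 to 310.7 Timp3 UMIs in siCont replicate 1, 153.8 to 224.6 in siCont replicate 2, 1032.1 to 1094.5 in siFXR1-LNA replicate 1 and 533.2 to 643.4 in siFXR1-LNA replicate 2. Tumor or mesothelial cells held 448.3, 368.9, 1204.6 and 673.7 on that scale. Over these 6 types the ranges of the 2 siFXR1-LNA libraries did not overlap with each other or with those of the siCont libraries. NK cells, mast cells and platelets had under 200 keratin UMIs in each library and are not compared, and shallow barcodes and erythrocytes had under 100 in 2 of the 4 libraries each. Tumor and mesothelial markers summed to 682.3, 209.5, 799.2 and 554.6 CPM in B cells and to 310.9, 71.7, 295.3 and 156.2 in macrophages, and their part in the Timp3 values was not tested.

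**Figure D5:**
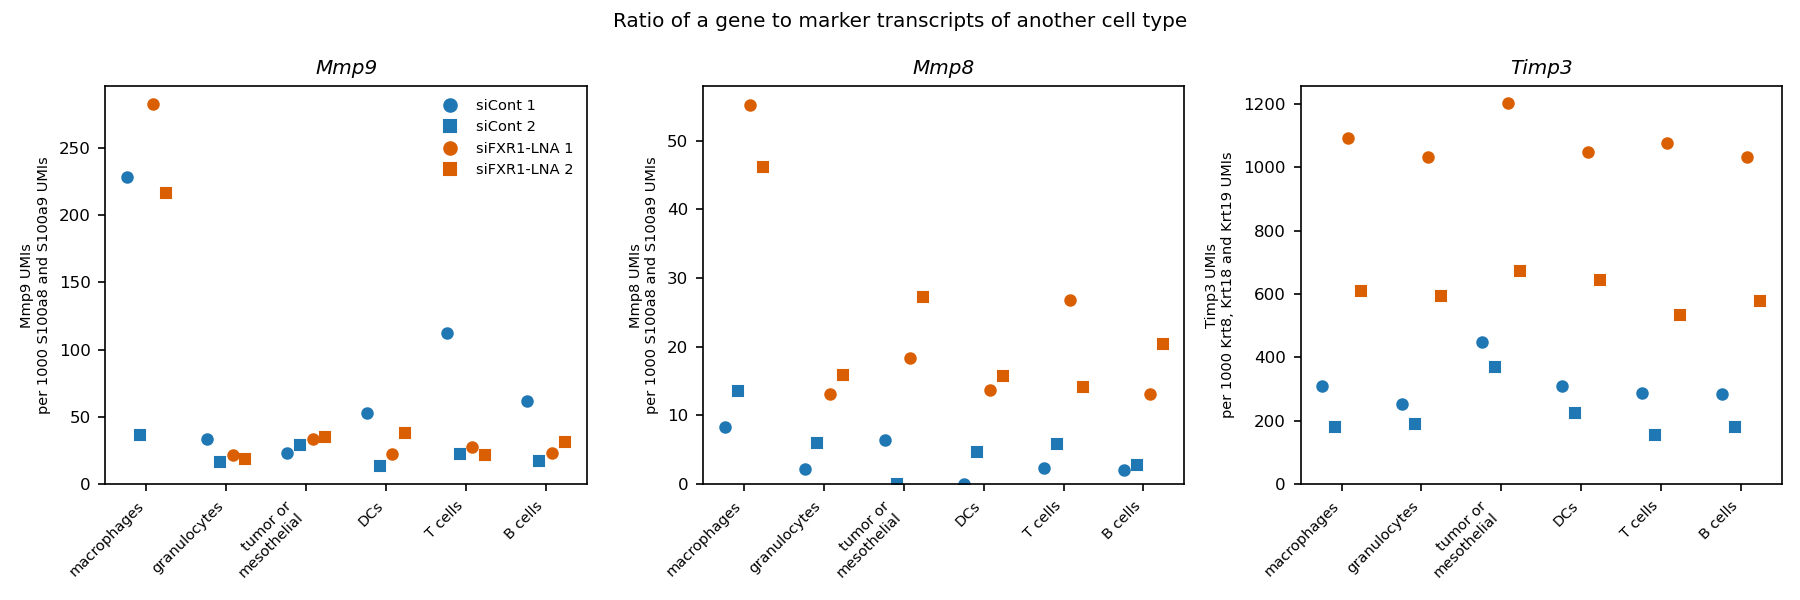
UMIs of Mmp9 and Mmp8 per 1000 UMIs of S100a8 and S100a9, and of Timp3 per 1000 UMIs of Krt8, Krt18 and Krt19, in each cell type, 1 point per library in the colours and shapes of the groups and replicates. In the siFXR1-LNA libraries Mmp9 in macrophages lies at 282.4 and 216.7 while the other types plotted stay at 38.2 or below, and in each type plotted Timp3 is highest in siFXR1-LNA replicate 1.

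Genes whose levels followed each member most closely over the 41 sums of cell type and library were listed by Pearson's r of log2(CPM + 1). The sums share libraries and depth, so the values are a description. Mmp8 went with Stfa2l1 (0.936), Fpr1 (0.924), a receptor of bacterial formyl peptides, and Crispld2 (0.923). Mmp9 went with Upp1 (0.876), S100a9 (0.873) and Mmp8 (0.868). Mmp14 went with Cacna1d (0.858) and Ptges (0.788), the prostaglandin E synthase. For Mmp12 they were Rasa4 (0.841), Rtl5 and Ptpro (both 0.834), and for Mmp13 Fam20a (0.74), Nr1h3 (0.719) and Ctsb (0.705). Mmp19 was nearest to Clec4a3 (0.773), Adam15 (0.745) and Rab3il1 (0.731). Among the inhibitors, Timp1 went with Rnd3 (0.837), Rhou (0.797) and Ltbp3 (0.754), and Timp2 with Idh1 (0.77), Gas6 (0.762) and Mgst1 (0.756). Timp3 followed Ccn2 (0.974), Hspb1 (0.967) and Efhd1 (0.966). Ccn2, Hspb1 and Timp3 itself were among the leading genes of the shallow barcodes.

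Metalloproteinase genes are textbook targets of AP-1, the Fos and Jun transcription factor, so its site was looked for. The letters TGANTCA, which read the same on both strands, were found in the 250 bases before the start of Mmp13 and of 1 of 2 Mmp12 starts (RefSeq, GRCm38.p6). They were not found at the other Mmp12 start or before Mmp8, Mmp14, Timp1, Timp2 and Timp3. Of 32851 promoters of the same length, 6.75% held them. The matches are shown in capitals, since these were the members whose windows held the letters, on the + strand, with their first bases 35 and 44 bases before the start:
Mmp13, chr9:7272462-7272501: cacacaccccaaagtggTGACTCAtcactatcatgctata
Mmp12, chr9:7347313-7347352: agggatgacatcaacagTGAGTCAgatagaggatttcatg
A match of letters does not show binding. Promoter entries matched 7 of the 9 genes, not Mmp9 and Mmp19.

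Partners of the members were counted from fixed lists. Of 14 tested activators, docking proteins and clearance receptors, 3 were higher and 1 was lower in siFXR1-LNA macrophages, where 20.4% of all genes passed. Lcn2, the lipocalin that binds Mmp9, went from 3.15 and 14.12 to 2774 and 2896 CPM, a log2 fold change of 8.58 (SE 0.893, adjusted p = 0.008335, edgeR). Bsg, a surface inducer of metalloproteinases, rose by 1.61 (SE 0.181, adjusted p = 0.009613) and Furin, the protease that activates Mmp14, by 1.09 (SE 0.127, adjusted p = 0.01022). The lower one was Plau, urokinase.

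Lcn2 is also a neutrophil granule gene, and it rose in tumor or mesothelial cells (5.37, adjusted p = 7.382e-05), DCs (6.09, 0.01606), T cells (6.43, 0.03887) and B cells (6.72, 0.03771) as well. In granulocytes 1 of 14 was higher, Bsg (2.34, adjusted p = 0.01741), and 1 lower, Prtn3 (−2.95, 0.04187), a serine protease of neutrophil granules. In tumor or mesothelial cells the list gave 3 higher of 11, in DCs 2 of 12, in T cells 2 of 12 and in B cells 1 of 13, and none lower in those 4 types. The shares of all genes that passed were 3.32% in granulocytes and 7.78, 2.8, 0.456 and 0.112% in the 4 other types in that order.

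Of 13 ADAM and ADAMTS proteases tested in macrophages, 4 were higher and 1 was lower, beside the 20.4% of all genes. Adam8, a sheddase of myeloid cells, went from 40.87 and 53.83 to 262.8 and 258.2 CPM (log2 fold change 2.67, SE 0.193, adjusted p = 0.005696, edgeR). Adam9 (0.93, adjusted p = 0.01104) and Adam19 (1.02, 0.01672) rose by less. In tumor or mesothelial cells, where 7.78% of all genes passed, 2 of 13 were higher and 2 lower, the lower ones being Adamts12 (−2.12, adjusted p = 0.002679) and Adamts10 (−1.30, 0.01343).

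Of the substrates, 2 of 11 rose in macrophages, the neutrophil-attracting chemokine Cxcl5 (6.64, adjusted p = 0.008631) and Tnf (1.07, 0.01763), and none fell, a share near the 20.4% of all genes. Tumor or mesothelial cells had 1 of 12 higher, Pf4 (1.56, adjusted p = 0.02154), and 1 lower, the fibrillar collagen gene Col3a1 (−2.65, 0.03138). Pf4 also passed in DCs (1.82, adjusted p = 0.04992), and no ADAM or substrate gene passed in granulocytes, T cells or B cells.

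The other metalloproteinases and inhibitors, 20 of the 21 listed being in the tables, were mostly below the count filter. In macrophages 1 of 6 tested was higher, Mmp27, the neighbour of Mmp8 on chromosome 9, at 0.9749, 0.5607, 2.362 and 2.165 CPM (log2 fold change 1.76, adjusted p = 0.03723). In tumor or mesothelial cells 2 of 6 were lower, the membrane-bound Mmp16, at 14.36, 14.39, 0.7884 and 1.571 (−3.69, SE 0.52, adjusted p = 0.003445), and Mmp15 (−3.12, adjusted p = 0.0391). No gene of that list passed in granulocytes, DCs, T cells or B cells.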

How the data were processed

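The deposited files hold raw counts: whole UMIs per gene and barcode, which the authors made with Cell Ranger 7.0.0 per the file headers, on the mouse build mm10. Ascites was collected 6 weeks after tumor injection, red cells were lysed, and several mice were pooled per library. The kit version is given differently by the labels and the methods, so 3′ chemistry is all that is stated here.

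The study's limits were applied to barcodes, at least 100 and no more than 4800 genes and mitochondrial UMIs of 15% or less, which left 36311, 25115, 54344 and 16874 per library. The paper reports far fewer cells after these limits, with a siFXR1-LNA library set aside. The barcodes kept here, which include erythrocytes and the shallow unnamed cluster, are thus not the study's cell set. Seurat 5.3.0 clustered them (resolution 0.1, 50 components, 1990 variable genes, the Mmp and Timp genes removed), and clusters and their subclusters (resolution 0.3) were named where at least 3 markers of a fixed list were raised 2-fold. A cluster stayed unnamed where its 10 leading genes held more markers of another type than of its own. Macrophage subclusters led by DC markers were counted as DCs, and a T cell subcluster led by NK markers as NK cells. Cluster 0 was left unnamed although 5 of 10 tumor or mesothelial markers were raised in it. Scrublet in scanpy 1.11.5 marked nearly no cells as doublets, so none were removed in the main values.

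UMIs were summed per library and type (levels are in CPM of that sum), in types with at least 10 cells in each library, and tested over all genes with edgeR 4.0.16 (TMM, filterByExpr, quasi-likelihood, adjusted p under 0.05), the method having been checked on simulated data. DESeq2 1.42.0 was an alternative, beside other filters, cell naming, doublet scores and left-out libraries. Shares of cells were compared after thinning to 1000 UMIs, with exact 95% intervals and floors of 3 counts, both of which cover counting error only. Levels of different genes are not compared, since 3′ counts depend on the gene. NK cells, platelets and erythrocytes were not tested.

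The 9 members and the gene lists were chosen with earlier results of these data known. Named are the members, other metalloproteinases at 10 or more CPM in 2 libraries of a type or past the test, up to 3 genes past the test per other list and type, and the 3 nearest genes by pattern among those at 50 or more, except for 1 neighbour that is not reported here.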

Additional observations from a re-analysis of the deposited data

Results flagged for a closer look

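In 9 cases the change from siCont to siFXR1-LNA differed between a pair of cell types, by edgeR's test of the interaction with library as a block; no other reason led to a listing here. Macrophages had a larger change than granulocytes for Mmp8 (difference of log2 fold changes 3.886, adjusted p = 2.436e-06) and Mmp9 (5.372, adjusted p = 4.914e-09). For Mmp14 the change was larger in macrophages than in tumor or mesothelial cells (3.468, adjusted p = 0.00337). Granulocytes had a smaller change than tumor or mesothelial cells for Mmp8 (−3.795, adjusted p = 0.007265) and Mmp9 (−4.637, adjusted p = 3.33e-06).

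With B cells as the second type, a choice made after the data were seen, Mmp9 changed more in macrophages (2.264, adjusted p = 0.002019) and Timp2 changed in the lower direction (−1.632, adjusted p = 0.00736). Granulocytes changed less than B cells for Mmp8 (−4.022, adjusted p = 8.086e-06) and Mmp9 (−3.229, adjusted p = 7.666e-06).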

How the results depend on the processing

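Counts of called members moved with single libraries and with how cells were named, and the cause was not tested. Leaving out each library in turn gave 1 to 6 called members in macrophages (1 without siFXR1-LNA replicate 1 and 3 without siFXR1-LNA replicate 2), 0 to 2 in granulocytes (2 without either siCont library), 2 to 4 in tumor or mesothelial cells, 0 to 5 in DCs, 0 to 4 in T cells, 0 to 5 in B cells (the higher numbers again without a siCont library in these 3 types), and 0 to 1 in mast cells and in shallow barcodes. The number of members whose change differed between types then ranged from 2 to 4 for macrophages and granulocytes, 0 to 2 for macrophages and tumor or mesothelial cells (0 without siFXR1-LNA replicate 1), 1 to 3 for granulocytes and tumor or mesothelial cells (1 without siCont replicate 2 or siFXR1-LNA replicate 1), and 0 to 3 for tumor or mesothelial cells and B cells (3 without siCont replicate 1). With cells named one by one from their marker UMIs the counts were 0 in macrophages, 1 in granulocytes, 4 in tumor or mesothelial cells and 0 in DCs. Cluster 2 macrophages alone gave 0 members, and 0 of all 13742 genes. Leaving out subclusters led by markers of another type gave 1 in tumor or mesothelial cells (all genes 939) and 0 in T cells (42). DESeq2 gave 1 in granulocytes (all genes 523), 3 in T cells (365), 3 in B cells (450) and 1 in shallow barcodes (313). No filter on low counts gave 4 in tumor or mesothelial cells (all genes 1945) and 5 in DCs (1636). It gave 5 in T cells (1002), 5 in B cells (1175) and 1 in shallow barcodes (151). In B cells, 1 was called without the 5% of cells with the highest Scrublet scores (all genes 59). The shallow barcodes also gave 1 with at least 500 genes per cell (all genes 38) and with a mitochondrial limit of 30% (197). The same held at Louvain resolution 0.3 (104) and without cells at 1% or more neutrophil marker UMIs (46).

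Among called members, direction turned for Mmp12 in macrophages, which was −0.053 in cluster 2 alone; the other turns were of changes that had not been called. In granulocytes Timp2 was 0.014 with DESeq2 and 0.036 with no filter, and ranged over left-out libraries from −0.25 to 0.29, while Mmp8 ranged from −0.16 without siCont replicate 1 to 2.578 without siCont replicate 2. In tumor or mesothelial cells Mmp19 was −0.101 with DESeq2 and ranged from −0.918 to 0.811, and Mmp14 was 1.066 with cells named one by one (adjusted p = 0.02689) and 0.111 at Louvain resolution 0.3 and ranged from −0.603 to 0.094. Timp2 in these cells was 0.075 with cells named one by one. Left-out libraries also gave ranges across 0 for Timp2 in DCs (−0.286 to 1.345), T cells (−0.208 to 0.903) and B cells (−0.127 to 1.168), for Mmp19 (−0.055 to 0.803) and Mmp12 (−0.77 to 0.089) in DCs, and for Timp1 in T cells (−0.346 to 1.904).

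The labels number the libraries 1 and 2 in both groups without saying that a number marks anything shared. With the replicate block, edgeR called 2 members in granulocytes, where all genes called went from 409 to 1057. It called 4 in DCs (all genes 333 to 1004), 5 in T cells (55 to 744), 5 in B cells (14 to 982) and 1 in shallow barcodes (10 to 172). In macrophages (2985 to 4471) the 6 stayed called and Timp1 (0.84, adjusted p = 0.01987) and Timp3 (2.71, adjusted p = 0.001274) were added. The differences between replicates 1 and 2 correlated across genes between the groups at 0.007 to 0.405 over the 8 types.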

Other observations

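Beyond the members, 4 genes of the same families reached 10 CPM in at least 2 libraries of a cell type. Mmp25, a membrane-anchored enzyme of leukocytes, stood at 16.9, 55.2, 15.7 and 25 CPM in granulocytes and at 32.3, 43.6, 22.9 and 33.4 in DCs, with overlapping groups in both. In T cells it was 15.4, 9.63, 8.16 and 29.9. Mmp11, stromelysin 3, stood at 30.6, 22.1, 19.9 and 25.8 in tumor or mesothelial cells, where Mmp16 was the other gene at that level. Reck, a membrane-anchored inhibitor of metalloproteinases, was found in NK cells at 22.2, 29.9, 0 and 10.2, but the siFXR1-LNA libraries held only 7 and 28 NK cells, so they were not tested.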
